A study of Mus musculus with 40 samples.

Results

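The IL-1 and IL-18 system was followed through 8 genes, namely Il1a, Il1b, Il1rn, Il1r1, Il1r2, Il1rap, Il18 and Il18bp. They were taken by gene symbol from a table of 27179 genes, and each of the 8 names was found once. They were listed by their role in the system, with earlier results of these data known. Levels are regularized log2 read counts (rlog), in which a difference of 1 is a doubling and low counts are pulled towards the mean of the gene.

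IL-1α and IL-1β are cytokines that macrophages make after sensing bacterial lipopolysaccharide (LPS), and both act through the signalling receptor IL1R1 together with its partner IL1RAP. The receptor antagonist encoded by Il1rn occupies IL1R1 without signalling, and the decoy receptor IL1R2 binds the ligands without a signalling domain. IL-18 is made as a precursor that caspase-1 processes, as is IL-1β, and the secreted IL-18 binding protein encoded by Il18bp keeps mature IL-18 from its own receptor.

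The libraries came from bone marrow-derived macrophages (BMDMs), which were grown from femoral marrow with L-cell conditioned medium as the source of M-CSF. The marrow donors were adult male mice of a mixed C57BL/6J and 129 background, either wild type (WT) or carrying a deletion of Cpeb4 in the whole animal (Cpeb4-/-). CPEB4 is a protein that binds cytoplasmic polyadenylation elements (CPEs) in 3′UTRs and acts on the translation and stability of the mRNA. Cells of each mouse were left untreated (0 hr) or stimulated with LPS at 10 ng/ml for 1, 3, 6 or 9 hr, which gave 40 libraries from 4 mice per genotype at 5 times. All groups therefore share the 2 named strains, the sex and the culture. The share of each parental strain in a mouse is not given, so strain differences between the genotypes cannot be told apart from the deletion. Each of 2 batches held 2 mice of each genotype, and no cage held both genotypes, so cage and genotype cannot be told apart. Below, values within a group are listed for mice 25, 88, 69 and 87 (WT) or 3, 62, 2 and 55 (Cpeb4-/-), of which the first pair in each list formed batch 1 and the second pair batch 2.

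The targeted gene separated the genotypes at 6 hr, where Cpeb4 was 10.42, 10.62, 10.67 and 10.09 in WT and 9.45, 8.74, 8.87 and 9.66 in the libraries labelled Cpeb4-/- (difference -1.27 ± 0.19, SE, limma, Benjamini-Hochberg adjusted p = 0.00114). At 0, 1, 3 and 9 hr the groups overlapped, with differences from -0.55 to 0.37. Each value covers all exons of Cpeb4, among which any still transcribed from the deleted allele cannot be told apart, and genotype is used here as labelled. All 8 macrophage markers were expressed, and their summed level was lower in the libraries labelled Cpeb4-/- at every time, led by Lyz2. Of markers of other cells, 4 of 9 for neutrophils, 1 of 6 for T cells, 1 of 5 for B cells, 3 of 5 for dendritic cells and 0 of 6 for mast cells passed the filter on low expression. The depth of each library is unknown, since the table holds no raw counts.

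Il1a and Il1b are neighbours on chromosome 2 (GRCm38). Il1b lies at chr2:129364570-129371139 and Il1a at chr2:129299610-129309972, both on the minus strand and 54.6 kb apart, and Il1rn lies far from them on the plus strand at chr2:24336853-24351494. The receptor genes Il1r2 (chr1:40074079-40125231) and Il1r1 (chr1:40225080-40317257) are 99.8 kb apart on the plus strand of chromosome 1. Il1rap lies at chr16:26581704-26730117 and Il18 at chr9:50554827-50581840, both on the plus strand, and Il18bp at chr7:102014885-102018690 on the minus strand. The strand setting of the read counting is not given, so reads from exons shared with genes on the opposite strand cannot be told apart: 222 bases of Il1a with Gm14023, 25 bases of Il1b with Il1bos, 552 bases of Il1rap with Gm20319 and 80 bases of Il18bp with Numa1.

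Because CPEB4 and AU-rich element binding proteins both act through 3′UTRs, the 3′UTR letters of the 8 genes are shown here before the values. The AU-rich pentamer ATTTA was counted on the transcript strand and occurs in 66.9% of the 3′UTRs of 11870 expressed genes, and in 6 of the 8 members. Il1r1 and Il1rap carry 8 copies each, Il1b 4, Il1a and Il18bp 3 each and Il18 1, while Il1rn and Il1r2 carry none. Counts are from the principal transcript of each gene and are not scaled by length. The 3′UTRs have 3864 bases in Il1r1, 2676 in Il1rap, 1864 in Il1rn, 1101 in Il1a, 861 in Il18bp and 459 in Il1b. The order by count is therefore not an order by density, and the members together hold 2.46 ATTTA per kilobase, beside 1.82 over all genes. The longer form TTATTTATT, present in 7.33% of 3′UTRs, occurs in none of the 8. The following windows of 30 bases lie in 3′UTRs of both IL-1 ligands, IL-18 and its binding protein, with ATTTA in capitals, at chr2:129300098-129300127 (Il1a), chr2:129364801-129364830 (Il1b), chr9:50581797-50581826 (Il18) and chr7:102014912-102014941 (Il18bp), each written 5′ to 3′ on the strand of the gene.
Il1a: gtATTTAtaaatatATTTAtgataattata
Il1b: ttacctATTTATTTAtgtATTTAttgattg
Il18: cccgaggctgcatgATTTAtagagtaaaca
Il18bp: ctttATTTAcaagtaataacATTTAgaaaa

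The CPE letters TTTTAT and TTTTAAT occur in 54.1% and 29.6% of the same 3′UTRs. Il1r1 carries TTTTAT 5 times, Il1rap 4 times, Il1rn 3 times and Il1a, Il1b and Il18bp once each, and TTTTAAT is found in Il1rap, Il1rn and Il1a. The 3′UTRs of Il18 (123 bases) and Il1r2 (24 bases) hold neither. Windows from Il18bp and Il1r1, which have called genotype differences below, and from Il1rn and Il1rap have the CPE letters in capitals. Windows of Il1a and Il1b, which also carry CPE letters, are not shown. They lie at chr7:102015153-102015182 (Il18bp, minus strand), chr1:40316045-40316074 (Il1r1), chr2:24350061-24350090 (Il1rn) and chr16:26717641-26717670 (Il1rap, where the motifs overlap), the last 3 on the plus strand. A match is only a run of letters and not evidence of binding.
Il18bp: tcaaggtctcatTTTTATttagaccctggt
Il1r1: tTTTTATtattaaagaacttgaTTTTATaa
Il1rn: tatggagaaggTTTTAATtctccttgttat
Il1rap: taagaccatTTTTAATTTTATtcataaaca

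Promoters of all 8 genes were found in RefSeq (GRCm38.p6), as windows from 250 bases before to 50 bases after a start site and 11 windows in all. The AP-1 motif TGANTCA, searched on both strands, occurs in 5.41% of 12690 promoters. Among the members it occurs in Il1a, from position -12 relative to the start site, at chr2:129309966-129309995 on the minus strand. It also occurs in the most upstream window of Il1rn, from position -141, at chr2:24336708-24336737 on the plus strand. The other Il1rn windows, which begin at chr2:24345041 and chr2:24345121, hold no match. The kappaB motif (10.5% of promoters) was matched only in an alternative promoter of Il1r1 and the ISRE core (3.3%) only in Il1rap. The AP-1 letters are in capitals.
Il1a: gcagagaagccTGACTCAgacttaagtctc
Il1rn: ttctgctagacTGAGTCAcgcctctggaag

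Per kilobase of exon, Il1b had the highest level of the 8 genes at every time in both genotypes and Il1r2 the lowest. Exons were pooled over all annotated transcripts of a gene, which gave 5.54 kb for Il1rn and 1.91 kb for Il1b. In untreated WT cells these length-scaled rlog levels ran from Il1b at 11.42 over Il1rn at 9.43, Il18 at 8.23, Il1a at 7.17, Il18bp at 5.87 and Il1rap at 4.46 to Il1r1 at 1.65 and Il1r2 at 1.26. Only the last pair overlapped between libraries, and the untreated places of Il1b and Il1a rest on levels that rlog may hold too high, as described with these genes. At 6 hr Il1b stood at 15.26 and Il1rn at 13.90, followed by Il18 at 11.32 and Il1a at 11.11. At 1 hr Il1a and Il1rn overlapped in both genotypes. On this scale Il1r1 and Il1r2 were thus the least abundant transcripts of the system and Il1b the most abundant. Not divided by length, mean Il1rn in WT stood above Il1b at 6 hr (16.37 against 16.19) and at 9 hr (16.16 against 15.45). The place of Il1b above Il1rn at these times therefore rests on the lengths used.

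**Figure D1:**
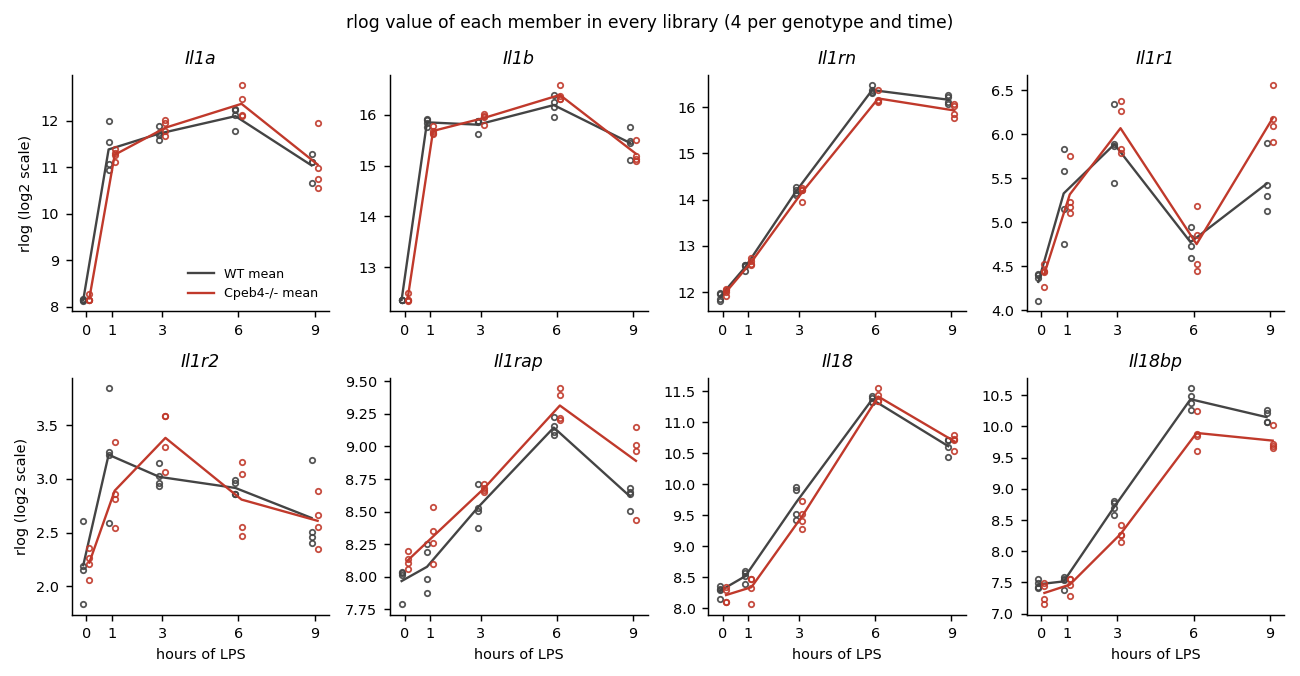
Each panel plots the rlog level (log2 scale) of 1 gene against hours of LPS, with a point per library and a line through the group means of WT and of the libraries labelled Cpeb4-/-. Il1a and Il1b rise by 1 hr, Il1rn, Il18 and Il18bp climb to 6 hr, and Il18bp is lower in the labelled Cpeb4-/- libraries at 3, 6 and 9 hr.

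The first comparison asked how each gene of the system moved between consecutive times after LPS, within each genotype. In WT cells the ligands Il1b and Il1a rose within 1 hr, and the antagonist Il1rn, Il18 and Il18bp rose mainly between 1 and 6 hr. Il1b rose by 3.50 ± 0.10 (SE, 11.3-fold) and Il1a by 3.23 ± 0.17 (9.4-fold) from 0 to 1 hr, whereas Il18bp differed by 0.046. Of the 8 genes 5 rose from 0 to 1 hr in WT and 5 in the libraries labelled Cpeb4-/- (limma, adjusted p under 0.05), while 17.3% and 23.8% of all genes rose. Among these, Il1r2 had untreated means of 2.20 in WT and 2.22 in the labelled Cpeb4-/- libraries, below the filter on low expression (2.32). It passed only through its stimulated libraries, so its rise was favoured by the selection. From 1 to 3 hr 5 rose in WT (28.0% of all genes) and 8 in the labelled Cpeb4-/- libraries (30.5%). From 3 to 6 hr 5 rose (33.3%) and 1 fell (30.4%) in WT, and 6 rose (32.4%) and 2 fell (32.1%) in the labelled Cpeb4-/- libraries. From 6 to 9 hr 6 fell (27.9%) and 1 rose (23.5%) in WT, and 5 fell (28.0%) and 1 rose (25.6%) in the labelled Cpeb4-/- libraries. Over the whole course 7 of 8 were higher at 9 hr than untreated in each genotype (35.9% and 36.4% of all genes), and the median change of the 8 was 2.51 in WT beside a median over all genes of -0.0044.

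Il1b, which encodes the precursor of the secreted ligand IL-1β, was 12.35, 12.35, 12.35 and 12.36 in the untreated WT libraries. It was 15.75, 15.84, 15.90 and 15.92 at 1 hr, 15.88, 15.61, 15.89 and 15.85 at 3 hr, and 16.16, 15.97, 16.26 and 16.39 at 6 hr. At 9 hr it was 15.44, 15.11, 15.75 and 15.48. Every stimulated library thus lay far above every untreated one, and 91.1% of the rise to the 6 hr peak had been reached at 1 hr. The untreated values stand at a floor: 7 of the 8 untreated libraries of both genotypes lie between 12.34 and 12.36, and the exception is the labelled Cpeb4-/- mouse 3 at 12.49. Since rlog pulls low counts together, the rises of Il1b and Il1a may be understated. From 1 to 3 hr Il1b differed by -0.046 (adjusted p = 0.717), which became a called fall of 0.28 after quantile normalization (adjusted p = 0.0243). From 3 to 6 hr it rose by 0.39 ± 0.10 (adjusted p = 0.00255), a call that quantile normalization ends (0.21, adjusted p = 0.0807), and from 6 to 9 hr it fell by 0.74 (adjusted p = 4.01e-06) and fell in 4 of 4 mice.

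Il1a, which encodes the ligand IL-1α that acts also inside the cell and at its surface, followed the same order with more spread between mice. In WT it was 8.13, 8.15, 8.15 and 8.16 untreated, 11.54, 11.06, 11.99 and 10.93 at 1 hr, and 11.69, 11.73, 11.88 and 11.58 at 3 hr. It was 12.13, 11.78, 12.23 and 12.24 at 6 hr and 11.11, 10.65, 11.28 and 11.11 at 9 hr. The 1 and 3 hr libraries overlapped, mouse 69 being the highest at both. From 1 to 3 hr the change of 0.34 was not called (adjusted p = 0.0915) but was with the mouse as a replicate block (adjusted p = 0.0342) and without mouse 69 (0.49, adjusted p = 0.0136). From 3 to 6 hr the change of 0.37 was again called only with the block (adjusted p = 0.0204) or without WT mouse 69 (0.38, adjusted p = 0.0459) or 88 (0.48, adjusted p = 0.0302), among the settings tried. From 6 to 9 hr Il1a fell by 1.06 ± 0.17 (adjusted p = 2.95e-05), in 4 of 4 mice.

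Il1rn, the receptor antagonist, moved later and in 3 steps of different size. In WT it was 11.86, 11.97, 11.96 and 11.82 untreated, 12.58, 12.59, 12.56 and 12.45 at 1 hr, and 14.26, 14.22, 14.10 and 14.14 at 3 hr. It was 16.37, 16.47, 16.31 and 16.33 at 6 hr and 16.07, 16.25, 16.22 and 16.11 at 9 hr. No library of 0, 1 or 3 hr overlapped with one of a later time. The rises were 0.64 ± 0.06 from 0 to 1 hr (adjusted p = 9.28e-09), 1.64 ± 0.06 from 1 to 3 hr (adjusted p = 1.18e-15) and 2.19 ± 0.06 from 3 to 6 hr (adjusted p = 1.1e-16), and 14.4% of the rise to the peak had been reached at 1 hr. From 6 to 9 hr Il1rn fell by 0.21 in WT (adjusted p = 0.00378) and by 0.26 in the libraries labelled Cpeb4-/- (adjusted p = 0.00553), but these falls turned to 0.10 (adjusted p = 0.17) and 0.0076 (adjusted p = 0.935) after quantile normalization. At 9 hr Il1rn stood 4.26 above untreated in WT, a 19.2-fold difference.

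Il18 and Il18bp, the cytokine and its soluble inhibitor, rose together from 1 hr on. Il18 in WT was 8.29, 8.31, 8.15 and 8.36 untreated, 8.38, 8.52, 8.60 and 8.56 at 1 hr, and 9.96, 9.42, 9.52 and 9.90 at 3 hr. It was 11.33, 11.33, 11.39 and 11.42 at 6 hr and 10.60, 10.43, 10.71 and 10.71 at 9 hr. The 6 hr libraries were the highest in every mouse and did not overlap with those of 9 hr. The change in the first hour was 0.24 in WT (adjusted p = 0.0643), called with the replicate block (adjusted p = 0.0379) and after quantile normalization (0.29, adjusted p = 0.0271). Il18 then rose by 1.19 ± 0.10 from 1 to 3 hr (adjusted p = 1.22e-09) and by 1.66 ± 0.10 from 3 to 6 hr (adjusted p = 9.23e-12), and fell by 0.75 ± 0.10 from 6 to 9 hr (adjusted p = 1.69e-06). Il18bp in WT rose by 1.20 ± 0.07 (adjusted p = 1.33e-11) and 1.72 ± 0.07 (adjusted p = 1.05e-13) in the same steps and fell by only 0.29 ± 0.07 at the end (adjusted p = 0.0026).

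The receptor genes moved less and in different orders. Il1r1, the signalling receptor, was 4.40, 4.11, 4.41 and 4.36 in untreated WT libraries, 5.58, 5.15, 5.83 and 4.76 at 1 hr, and 5.45, 5.89, 6.35 and 5.86 at 3 hr. It was 4.73, 4.82, 4.95 and 4.60 at 6 hr and 5.42, 5.90, 5.30 and 5.13 at 9 hr. Il1r1 was thus high at 3 hr, low at 6 hr and higher again at 9 hr, and the 6 hr libraries overlapped with neither of the neighbouring times. It rose by 1.01 ± 0.21 in the first hour (adjusted p = 0.000656) and by 0.56 from 1 to 3 hr (adjusted p = 0.0257), fell by 1.11 ± 0.21 from 3 to 6 hr (adjusted p = 9.92e-05) and rose by 0.67 from 6 to 9 hr (adjusted p = 0.0114). The step from 1 to 3 hr was not called without WT mouse 87 (0.38, adjusted p = 0.156) or 88 (0.50, adjusted p = 0.103), and the step from 6 to 9 hr not without mouse 88 (0.53, adjusted p = 0.0975). In the libraries labelled Cpeb4-/- the last 2 steps were a fall of 1.32 ± 0.18 (adjusted p = 1.72e-06) and a rise of 1.43 ± 0.18 (adjusted p = 1.04e-06).

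Il1rap, the partner chain that IL1R1 needs to signal, lay between 7.79 and 8.04 in untreated WT libraries and between 9.09 and 9.23 at 6 hr. It rose by 0.45 ± 0.08 from 1 to 3 hr (adjusted p = 9.99e-05) and by 0.61 ± 0.08 from 3 to 6 hr (adjusted p = 2.5e-06), and fell by 0.53 ± 0.08 from 6 to 9 hr (adjusted p = 2.7e-05). Il1r2, the decoy receptor, was the least expressed member, between 1.84 and 2.61 in untreated WT libraries. From this level, whose mean was below the filter, Il1r2 rose by 1.03 ± 0.22 in the first hour (adjusted p = 0.000844), and none of its later steps was called in WT. In the libraries labelled Cpeb4-/- Il1r2 rose by 0.67 in the first hour (adjusted p = 0.00706), by 0.49 from 1 to 3 hr (adjusted p = 0.0291) and fell by 0.58 from 3 to 6 hr (adjusted p = 0.012), but each of these calls was lost without 1 or more of the mice. The first was lost without mouse 2 (0.46, adjusted p = 0.0607), the second without mouse 3 (adjusted p = 0.0652), 55 (adjusted p = 0.072) or 62 (0.40, adjusted p = 0.173), and the third without mouse 55 (-0.49, adjusted p = 0.0816) or 62 (-0.42, adjusted p = 0.147). Without mouse 55, Il1a (adjusted p = 0.0959) and Il1rap (adjusted p = 0.0591) also lost their calls from 1 to 3 hr, which left 5 of the 8 genes. Il1b lost its call in this step without mouse 62 (0.23, adjusted p = 0.0568) and after quantile normalization (0.077, adjusted p = 0.422). From 3 to 6 hr Il1a rose by 0.51 in the labelled Cpeb4-/- libraries (adjusted p = 0.0297), which was not called without mouse 55 (0.53, adjusted p = 0.101) or 62 (0.56, adjusted p = 0.0629), without the filter (adjusted p = 0.0703) or after quantile normalization (0.36, adjusted p = 0.0962).

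**Figure D2:**
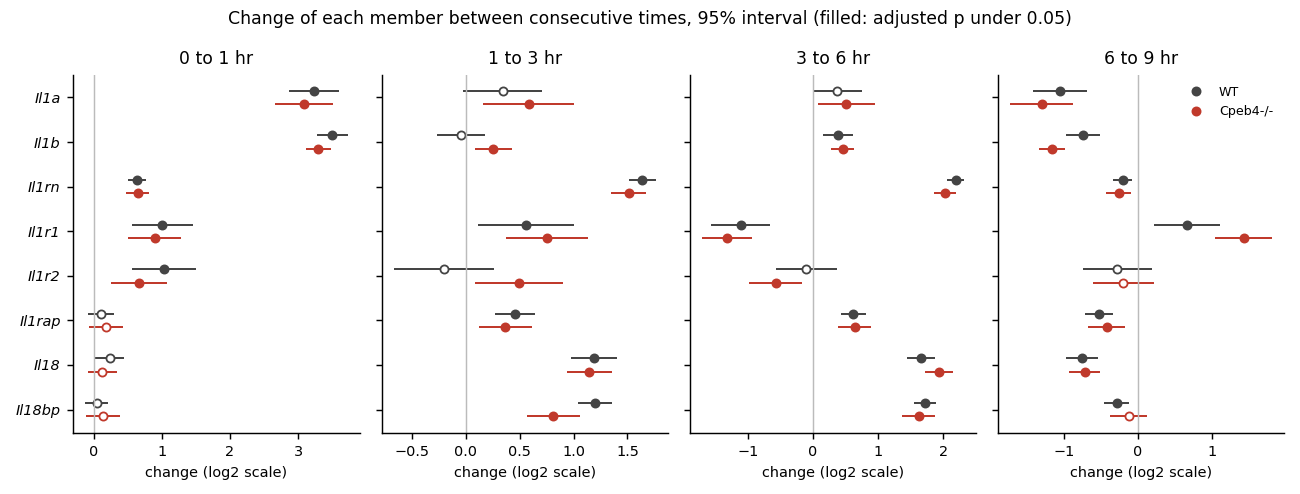
The change in rlog (log2 scale) of each gene is plotted for the 4 consecutive time steps in WT and in the libraries labelled Cpeb4-/-, with 95% confidence intervals as lines and filled points where the adjusted p is under 0.05. Il1b and Il1a have their largest step from 0 to 1 hr (3.50 and 3.23 in WT), Il1rn, Il18 and Il18bp from 3 to 6 hr (2.19, 1.66 and 1.72 in WT), and Il1r1 falls from 3 to 6 hr and rises again by 9 hr.

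Over the 4654 genes whose mean rlog was 5 or more and whose group means ranged over at least 1, those most like each member over the 10 group means were taken by Pearson's r, as a description. Il1a and Il1b were each other's closest gene (r = 0.994). Il1a was next closest to Socs3 (0.991), which encodes an inhibitor of cytokine signalling, and Tank (0.99), and Il1b to Ccdc71l (0.992) and Socs3 (0.991). Il1rn was closest to Cyfip1 (0.998), Acsl5 and Irak3 (both 0.996), Il18 to Map2k1 (0.997), Sp100 and Wars (both 0.996), and Il18bp to Fcgr4 (0.997), Grina (0.996) and Lgals9 (0.995). Il1rap was closest to Kif5b (0.988), Dnajc13 (0.986) and Lnpep (0.985), and Il1r2 to Gm20367 (0.945), Icam1 (0.944) and Col11a2 (0.943). Il1r1 had the least similar neighbours, with Chd7 at 0.88, Ednrb at 0.856 and Ampd3 at 0.853. The 10 points share mice and times, and most of the range of each gene is its response to LPS.

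The second comparison asked whether the genes of the system differed between the genotypes at each time. Il18bp was lower in the libraries labelled Cpeb4-/- at 3, 6 and 9 hr, at 0.738, 0.687 and 0.77 times the WT level, and Il1r1 was 1.68-fold higher at 9 hr. None of 7 tested members was called at 0 hr (limma, adjusted p under 0.05, background 1.31% of all genes), 0 of 8 at 1 hr (1.91%), 1 of 8 at 3 hr (3.68%), 1 of 8 at 6 hr (16.3%) and 2 of 8 at 9 hr (7.91%). The 4 libraries of each genotype did not overlap for 1, 0, 1, 1 and 3 of the 8 members at the 5 times, beside 10.5%, 15.7%, 13.6%, 20.2% and 16.9% of all genes. At 6 hr neither share of the members exceeded that of all genes. The smallest p that the exact permutation test can give for 4 against 4 libraries is 0.0286, two-sided.

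Il18bp, the inhibitor of IL-18, was 7.43, 7.55, 7.49 and 7.40 in untreated WT and 7.23, 7.16, 7.44 and 7.49 in untreated libraries labelled Cpeb4-/-, which overlap (difference -0.14 ± 0.09, SE, adjusted p = 0.4). At 1 hr the groups overlapped as well (difference -0.052, adjusted p = 0.665). At 3 hr Il18bp was 8.77, 8.69, 8.59 and 8.81 in WT and 8.15, 8.26, 8.26 and 8.42 in the libraries labelled Cpeb4-/-. Every labelled Cpeb4-/- library lay below every WT library, by -0.44 ± 0.08 on average (95% interval -0.60 to -0.27, adjusted p = 0.016, exact permutation p = 0.0286). At 6 hr the values were 10.38, 10.61, 10.49 and 10.27 in WT and 9.61, 9.89, 9.84 and 10.25 in the libraries labelled Cpeb4-/-. The groups again did not overlap, although mouse 55 at 10.25 came close to the lowest WT library at 10.27. The difference at 6 hr was -0.54 ± 0.11 (95% interval -0.78 to -0.30, adjusted p = 0.00737). At 9 hr Il18bp was 10.07, 10.26, 10.21 and 10.07 in WT and 9.65, 9.69, 9.72 and 10.03 in the libraries labelled Cpeb4-/-, again without overlap and with mouse 55 the nearest to WT (difference -0.38 ± 0.09, adjusted p = 0.0261).

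The Il18bp difference had the same direction in both batches, at -0.52 and -0.36 (3 hr), -0.75 and -0.33 (6 hr) and -0.49 and -0.26 (9 hr). The 6 hr call was kept when any 1 mouse was left out and was lost only without the filter on low expression (adjusted p = 0.0674). The 3 hr call was lost without labelled Cpeb4-/- mouse 2 (-0.44, adjusted p = 0.057), 3 (-0.40, adjusted p = 0.0638) or 62 (-0.44, adjusted p = 0.0598), or WT mouse 25 (-0.42, adjusted p = 0.0546). The 9 hr call was lost without the variance trend (adjusted p = 0.0522), without the filter (adjusted p = 0.0793), without labelled Cpeb4-/- mouse 3 (-0.34, adjusted p = 0.0712) or 62 (-0.35, adjusted p = 0.0798), or WT mouse 25 (-0.40, adjusted p = 0.0591), 69 (-0.36, adjusted p = 0.0802), 87 (-0.40, adjusted p = 0.0565) or 88 (-0.34, adjusted p = 0.0661). The difference itself stayed between -0.49 and -0.40 at 3 hr, -0.66 and -0.44 at 6 hr and -0.46 and -0.34 at 9 hr over the 15 alternative settings. Numa1, whose exons overlap those of Il18bp on the opposite strand, differed by -0.066, -0.18 and 0.17 at 3, 6 and 9 hr and was not called, and the macrophage marker sum was 19.24 to 19.32 in WT and 18.92 to 19.14 in the libraries labelled Cpeb4-/- at 6 hr. The part of these in the Il18bp difference was not tested.

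Il18 itself did not show the difference seen for its binding protein. At 6 hr it was 11.33, 11.33, 11.39 and 11.42 in WT and 11.34, 11.43, 11.34 and 11.54 in the libraries labelled Cpeb4-/-, and at 9 hr it was 10.60, 10.43, 10.71 and 10.71 in WT and 10.73, 10.53, 10.71 and 10.78 in the libraries labelled Cpeb4-/-. The groups overlapped at both times and at the other 3. The differences were -0.068, -0.18, -0.22, 0.047 and 0.078 at the 5 times and none was called, with an interval of -0.063 to 0.16 at 6 hr.

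Il1r1 was 5.42, 5.90, 5.30 and 5.13 in WT at 9 hr and 6.17, 6.56, 6.09 and 5.92 in the libraries labelled Cpeb4-/-. The lowest labelled Cpeb4-/- library stood just above the highest WT library (5.92 against 5.90), and the mean difference was 0.75 ± 0.18 (95% interval 0.35 to 1.14, adjusted p = 0.0309, exact permutation p = 0.0286). It was 0.70 in batch 1 and 0.79 in batch 2. At the other times the groups overlapped, with differences from -0.022 to 0.18 that were not called. The 9 hr call was lost without labelled Cpeb4-/- mouse 3 (0.75, adjusted p = 0.068) or 62 (0.62, adjusted p = 0.0847), without WT mouse 25 (0.74, adjusted p = 0.0853), 69 (0.70, adjusted p = 0.09) or 87 (0.64, adjusted p = 0.0902), without the filter (adjusted p = 0.105), without the mean-variance trend (adjusted p = 0.0514) and after quantile normalization (0.68, adjusted p = 0.05). Fibroblasts and other stromal cells express Il1r1, and the summed level of 7 stromal markers was 7.97 to 8.35 in WT and 8.43 to 9.05 in the libraries labelled Cpeb4-/- at 9 hr. Of these markers Pdgfrb (higher by 0.65 at 9 hr, adjusted p = 0.0178) and Dcn (difference 0.089, adjusted p = 0.702) passed the filter, and Col1a1, Col1a2, Col3a1, Pdgfra and Lum did not. Pdgfrb carried most of the sum, and without it the groups overlapped at 9 hr (4.49 to 4.79 in WT and 4.74 to 6.13). Mean Pdgfrb itself changed with LPS within each genotype. It went from 5.41 untreated to 8.62 at 6 hr and 8.00 at 9 hr in WT. In the libraries labelled Cpeb4-/- it went from 5.58 to 9.28 and 8.65. At 6 hr the stromal sum was also higher, at 9.22 to 9.49 against 8.58 to 8.76 in WT, while Il1r1 overlapped between the groups. The part of stromal cells in the Il1r1 difference was not tested, and in bulk libraries more cells of a type and more RNA per cell cannot be told apart.

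Il1rn was 16.37, 16.47, 16.31 and 16.33 in WT and 16.16, 16.13, 16.11 and 16.36 in the libraries labelled Cpeb4-/- at 6 hr. Mouse 55 lay among the WT libraries and the other 3 labelled Cpeb4-/- libraries below them, and the difference of -0.18 ± 0.07 was not called (adjusted p = 0.0853), but was without mouse 55 (-0.24, adjusted p = 0.0127). At 9 hr Il1rn was 16.07, 16.25, 16.22 and 16.11 in WT and 16.03, 15.85, 15.77 and 16.06 in the libraries labelled Cpeb4-/-, without overlap, at a difference of -0.23 ± 0.08 (95% interval -0.41 to -0.058, adjusted p = 0.0942, -0.22 and -0.25 in the 2 batches). When all 40 libraries shared 1 estimate of the spread this difference was called, both as such (adjusted p = 0.0128) and with the mouse as a replicate block (adjusted p = 0.014). At 0 and 1 hr the differences were 0.10 and 0.11, uncalled, and at 3 hr -0.019, which turned to 0.037 after quantile normalization.

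For the ligands Il1b and Il1a no difference was called at any time. Il1b was 15.75, 15.84, 15.90 and 15.92 in WT and 15.64, 15.63, 15.67 and 15.78 in the libraries labelled Cpeb4-/- at 1 hr, where only mouse 55 overlapped with WT (difference -0.17 ± 0.06, adjusted p = 0.0951). At 6 hr it was 16.16, 15.97, 16.26 and 16.39 in WT and 16.58, 16.31, 16.31 and 16.37 in the libraries labelled Cpeb4-/-. The difference of 0.20 (adjusted p = 0.155) came to 0.38 in batch 1 and 0.016 in batch 2, and to 0.34 with a call after quantile normalization (adjusted p = 0.0475). At 9 hr the batches differed in direction as well, at 0.026 and -0.46. Il1a differed by 0.032, -0.11, 0.13, 0.26 and 0.019 at the 5 times, and its labelled Cpeb4-/- libraries were widely spread at 9 hr (11.94, 10.74, 10.56 and 10.98), with mouse 3 far above the rest. The interval of the Il1a difference at 9 hr ran from -0.55 to 0.58.

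Il1rap was higher in the libraries labelled Cpeb4-/- at each time, by 0.16, 0.23, 0.15, 0.17 and 0.27, and no time was called with all mice. The untreated libraries did not overlap, at 8.01, 8.03, 8.04 and 7.79 in WT and 8.20, 8.13, 8.11 and 8.06 in the libraries labelled Cpeb4-/- (adjusted p = 0.277). At 9 hr Il1rap was 8.63, 8.68, 8.51 and 8.65 in WT and 9.15, 9.01, 8.43 and 8.96 in the libraries labelled Cpeb4-/-, so that 3 labelled Cpeb4-/- libraries lay above all WT libraries and mouse 2 below them. Without mouse 2 the 9 hr difference was 0.42 and called (adjusted p = 0.00155), and without WT mouse 88 the 3 hr difference was 0.21 and called (adjusted p = 0.0372). Il1r2 was below the filter at 0 hr and overlapped between the genotypes at all times, with the largest separation at 3 hr (3.02 ± 0.10 in WT and 3.38 ± 0.25 in the libraries labelled Cpeb4-/-, SD, n = 4 each, limma adjusted p = 0.209).

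**Figure D3:**
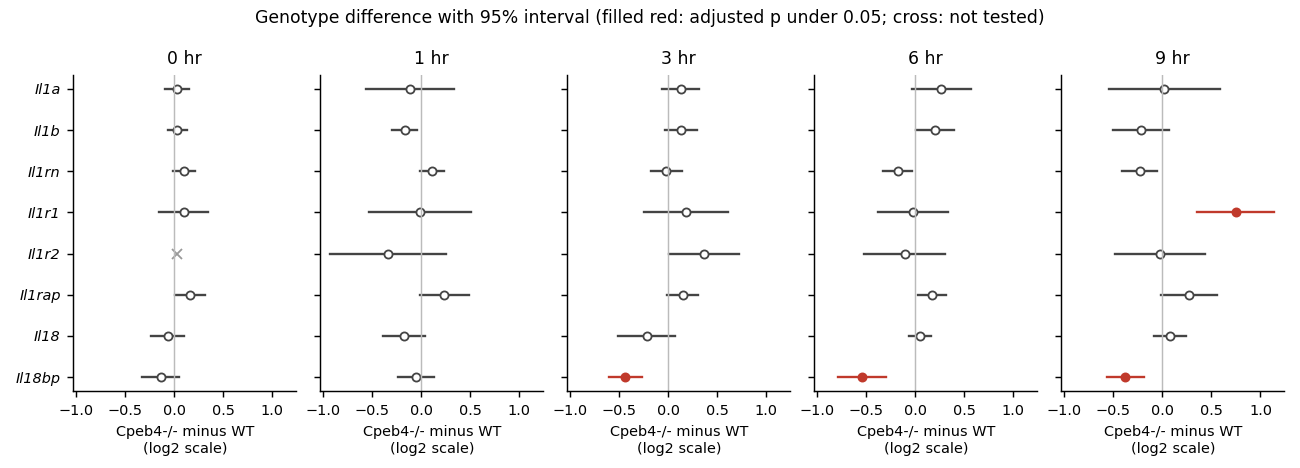
The difference in rlog between libraries labelled Cpeb4-/- and WT libraries (log2 scale) is plotted for each gene and time, with 95% confidence intervals as bars. Il18bp lies below 0 at 3, 6 and 9 hr (-0.44, -0.54 and -0.38), Il1r1 above 0 at 9 hr (0.75), and Il1rap above 0 at every time without a called difference.

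Whether the change since 0 hr differed between the genotypes was tested in 1 fit over all 40 libraries. None of the 8 members was called at 1, 3, 6 or 9 hr, beside 0.00763%, 0.206%, 2.94% and 1.76% of all genes. The change of Il18bp was smaller in the libraries labelled Cpeb4-/- by 0.40 at 6 hr (estimate -0.40 ± 0.14, adjusted p = 0.113). Its estimates were -0.30 ± 0.14 at 3 hr (adjusted p = 0.913) and -0.24 ± 0.14 at 9 hr (adjusted p = 0.556). The Il18bp differences at 3 and 9 hr are thus not shown to differ from that at 0 hr. The change of Il1rn differed by -0.28 ± 0.09 at 6 hr (adjusted p = 0.0996) and -0.33 ± 0.09 at 9 hr (adjusted p = 0.0575). Since the same mice gave all times, the fit was repeated with the mouse as a replicate block, which called Il18bp at 6 hr (adjusted p = 0.00829) and Il1rn at 6 hr (adjusted p = 0.0375) and 9 hr (adjusted p = 0.0179), in all 2 of 8 members at 6 hr (7.88% of all genes) and 1 of 8 at 9 hr (4.99%), and none at 1 hr (0.00763%) or 3 hr (0.549%). Il18bp at 6 hr was also called without mouse 55 (-0.47, adjusted p = 0.024). For Il1r1 the estimate at 9 hr was 0.65 ± 0.29 (adjusted p = 0.318), so its 9 hr difference is not shown to differ from that at 0 hr.

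The difference between an inhibitor and its ligand within a library puts these genes on 1 scale, as a description without a test and not divided by length. Il1rn minus Il1b in WT was -0.45 in untreated cells and went from -3.31 at 1 hr over -1.62 and 0.18 to 0.71 at 9 hr. The untreated value, and so the size of the fall to 1 hr, rests on the floor of Il1b described above. Il1rn minus Il1b was thus lowest at 1 hr and rose at each later time. Per kilobase of exon Il1b stood above Il1rn at every time, an order that depends on the pooled exon lengths used. At 6 hr Il1rn minus Il1b was 0.18 ± 0.25 in WT and -0.20 ± 0.17 in the libraries labelled Cpeb4-/- (SD, n = 4 each), which overlap. Il1rn minus Il1a at 6 hr was 4.07 to 4.69 in WT and 3.40 to 4.01 in the libraries labelled Cpeb4-/-, without overlap. Its mean difference of -0.45 came to -0.77 in batch 1 and -0.12 in batch 2. At the other times the Il1rn minus Il1a values overlapped. Il18bp minus Il18 in WT was -0.81 untreated, -0.93 at 6 hr and -0.46 at 9 hr. In the libraries labelled Cpeb4-/- it was -1.73, -1.55, -1.49 and -1.29 at 6 hr, against -0.95, -0.72, -0.90 and -1.15 in WT, and -1.08, -0.84, -0.99 and -0.76 at 9 hr, against -0.53, -0.18, -0.50 and -0.64. At both times every labelled Cpeb4-/- library lay below every WT library, by 0.59 and 0.45 on average, and by 0.81 and 0.37 in the 2 batches at 6 hr. Il18 differed by only 0.047 and 0.078 at these times, so this largely restates the Il18bp difference. Among single genes 20.2% did not overlap at 6 hr and 16.9% at 9 hr, while no such share was computed over pairs of genes. Il1r2 minus Il1r1 at 9 hr was -2.97, -2.72, -2.80 and -2.72 in WT and -3.51, -4.01, -3.75 and -3.03 in the libraries labelled Cpeb4-/-, also without overlap. Il1r2 differed by only -0.027 at 9 hr and lies near the filter, so this largely restates the Il1r1 difference of 0.75. The call of that Il1r1 difference was lost in several settings, as given above.

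**Figure D4:**
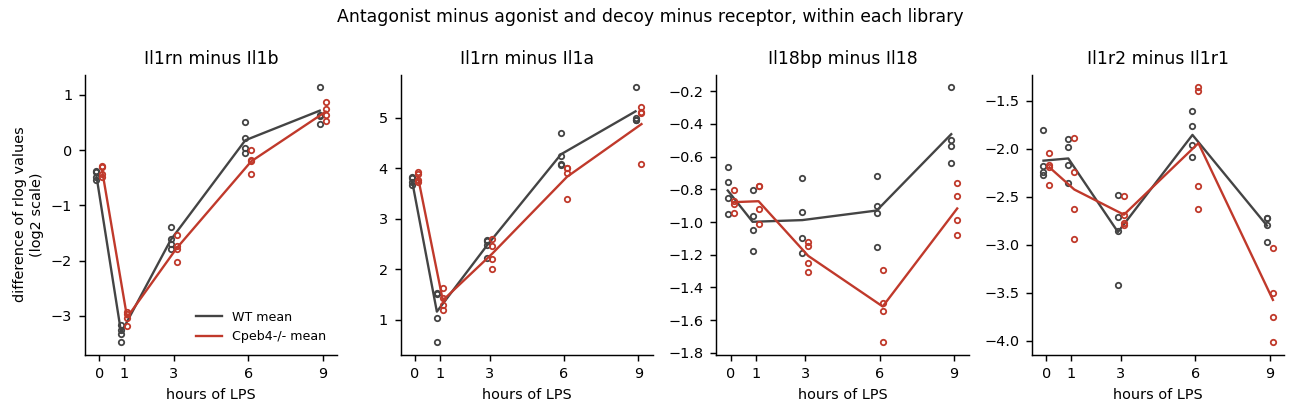
The difference in rlog (log2 scale) between an inhibitor or decoy and its partner is plotted against hours of LPS for each library, with lines through the group means. Il1rn minus Il1b is lowest at 1 hr (-3.31) and rises to 0.71 at 9 hr in WT, and its untreated value rests on the floor of Il1b. Il18bp minus Il18 is lower in the libraries labelled Cpeb4-/- at 6 and 9 hr, without overlap, which largely restates the Il18bp difference.

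Other genes of the pathway were counted on lists chosen with earlier results known. Over the WT course from 0 to 9 hr 35.9% of all genes rose and 35.6% fell. Of 6 other ligands of the family 3 passed the filter, and all 3 rose by 9 hr in WT, namely Il1f6 by 3.31, Il1f9 by 2.78 and Il33 by 1.64. Untreated WT means of Il1f6 and Il33 were both 1.84, below the filter of 2.32. Both genes passed only through their stimulated libraries, so their rise follows in part from the selection. No genotype difference of these ligands was called at 6 or 9 hr. Of 7 other receptors 4 passed, of which Il1rl1 (the IL-33 receptor) fell by 3.34, Sigirr (an inhibitory receptor) by 1.86 and Il18rap (the partner chain of the IL-18 receptor) by 1.07, and 1 rose. Il18rap was lower in the libraries labelled Cpeb4-/- at 6 hr by 0.88 ± 0.17 (adjusted p = 0.0046). Il18rap and Il18bp were thus both called lower at 6 hr, when 9.92% of all genes were called lower, while Il18 was not. At 9 hr, when Il18bp was still lower, Il18rap differed by 0.14 in the other direction, uncalled (limma, adjusted p = 0.562). Il18r1, another listed receptor gene, did not pass the filter (mean rlog 0.90).

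Of 15 genes of the inflammasome and the processing of IL-1 and IL-18 all passed the filter, and 11 rose and 3 fell over the WT course, when 35.9% of all genes rose and 35.6% fell. Casp1, the protease that cleaves both precursors, rose by 1.59, and Mefv, which encodes the sensor pyrin, by 2.12, while Nlrp1b fell by 2.28. By genotype 4 of the 15 were called at 6 hr, in both directions (16.3% of all genes), and 2 at 9 hr, both upwards (7.91% of all genes in either direction). Casp4, the caspase that senses intracellular LPS, was higher in the libraries labelled Cpeb4-/- by 0.84 ± 0.07 at 6 hr (adjusted p = 4.74e-05) and 0.98 ± 0.06 at 9 hr (adjusted p = 1.67e-05), and already stood at 10.46 ± 0.10 against 9.65 ± 0.07 in untreated cells (SD, n = 4 each). The part of the parental strains in this difference was not tested. Nlrp1b was higher by 0.41 at 9 hr (adjusted p = 0.00856), S100a10 by 0.20 at 6 hr (adjusted p = 0.0162), and Aim2, a sensor of cytosolic DNA, was lower at 6 hr (-0.28, adjusted p = 0.019). The remaining call at 6 hr, Capn2, which encodes a calpain subunit, is given outside the naming rule, after its values were seen (-0.20, adjusted p = 0.043). For Casp1 the differences of -0.16 at 6 hr and -0.18 at 9 hr were not called.

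Of 19 genes that relay the signal of the IL-1 receptor all passed the filter, and 15 rose and 2 fell over the WT course (35.9% and 35.6% of all genes). Irak3, an inhibitor of the pathway, rose by 2.48, Irak2 by 1.49 and the ubiquitin ligase gene Peli1 by 1.44. At 6 and 9 hr 2 of the 19 were called lower in the libraries labelled Cpeb4-/- and none higher, beside 9.92% and 3.22% of all genes called lower, so that the share at 6 hr was near that of all genes. The kinase gene Irak2 was lower at 6 hr (-0.19 ± 0.04, adjusted p = 0.0103) and at 9 hr (-0.26 ± 0.06, adjusted p = 0.024). Nfkbiz, which encodes a nuclear IκB protein, was lower at 6 hr (-0.17, adjusted p = 0.0382), and Irak4 at 9 hr (-0.30, adjusted p = 0.049).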

How the data were processed

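RNA-seq of poly(A) RNA from BMDMs was performed by the authors, who, per the submitters' processing notes, used STAR (2.3.0e), the mm10 genome, featureCounts and DESeq2. The deposited table holds log2 values made by the authors with the regularized log transformation of gene counts, scaled between libraries, from -2.4 to 19.4 over 40 libraries. Raw counts were not used here, so depth per library is unknown and no counting interval is given. All value columns were mapped to a sample by name (0 columns were left unused), and no pair of libraries held identical values.

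Groups followed the labels (genotype and hours of LPS). At each time WT and Cpeb4-/- libraries were compared with limma (3.58.1, R 4.3.3, empirical Bayes with trend) on genes whose mean rlog reached 2.32, the log2 of 5. Time steps were fitted over the 5 times of each genotype and genotype by time over all 40 libraries. Adjusted p-values are Benjamini-Hochberg over all genes tested, and 0.05 was the threshold. Single values were also compared with an exact two-sided permutation test (scipy 1.17.1). Since rlog values and not counts were available, no count model was run.

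Labels give 1 mouse for all 5 times. Deviations from the group means correlated at a median r of 0.286 over 80 pairs of libraries from the same mouse (68 above 0.1, lowest -0.197) and of -0.091 over 240 pairs from different mice, and the mouse was used as a replicate block in an alternative. Other alternatives were no filter, a mean rlog of at least 5, quantile normalization, no variance trend, batch as a covariate, all 40 libraries in 1 fit and leaving out each mouse in turn.

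All 8 members were named, other pathway genes when among the 4 largest differences called by genotype at 6 or 9 hr in their list or the 3 largest changes of their list in WT from 0 to 9 hr, and like genes as the 3 with the highest r. Members and lists were chosen with earlier results of these data known. Gene positions and 3′UTRs came from a GENCODE annotation of GRCm38 and promoters from RefSeq. Length-scaled levels are rlog minus the log2 of exonic kilobases, with exons pooled over all annotated transcripts of a gene.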

Additional observations from a re-analysis of the deposited data

Results flagged for a closer look

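In 9 of 120 groups of 4 values, 1 library stood apart from the other 3 by Dixon's test, and chance gives about 1 in 20 groups. The labelled Cpeb4-/- mouse 3 was the highest untreated library of its group for Il1a (8.27, the others 8.14 to 8.15) and for Il1b (12.49, the others 12.34 to 12.36). The same mouse was the lowest at 3 hr for Il1rn (13.95, the others 14.22 to 14.26) and at 9 hr for Il1rn minus Il1a (4.09, the others 5.08 to 5.21).

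WT mouse 88 was the lowest library of its group for Il1b at 3 hr (15.61, the others 15.85 to 15.89) and for untreated Il1r1 (4.11, the others 4.36 to 4.41), and the highest for Il1r2 at 9 hr (3.17, the others 2.41 to 2.51) and for Il1rn minus Il1a at 9 hr (5.60, the others 4.95 to 4.99). WT mouse 87 was the lowest untreated library for Il1rap (7.79, the others 8.01 to 8.04). No value of Il18 or Il18bp stood apart in this way.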

How the results depend on the processing

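The number of members called by genotype was 0 at 6 hr without the filter and 2 after quantile normalization, and at 9 hr 0 without the variance trend, 0 without the filter and 1 after quantile normalization. With the replicate block 2 members were called for genotype by time at 6 hr and 1 at 9 hr, and beside the calls given above the block changed no other. Leaving out 1 mouse gave 0 to 2 members called by genotype at 3 hr, 1 to 2 at 6 hr and 0 to 3 at 9 hr, 0 to 1 for genotype by time at 6 hr, and 5 to 8 for the step from 1 to 3 hr in the libraries labelled Cpeb4-/-. After quantile normalization 4 results reversed, namely the last step of Il1rn in WT (0.10) and in the libraries labelled Cpeb4-/- (0.0076), its 3 hr genotype difference (0.037) and the 6 hr genotype by time estimate of Il1rap (-0.021). Leaving out 1 mouse turned 22 uncalled directions and 0 called ones. In the genotype difference these were Il1b at 0 hr (-0.0050 to 0.045), Il1a (-0.26 to 0.090), Il1r1 (-0.20 to 0.16) and Il18bp (-0.096 to 0.0068) at 1 hr, Il1rn at 3 hr (-0.050 to 0.050), Il1r1 (-0.17 to 0.081) and Il1r2 (-0.23 to 0.0039) at 6 hr, and Il1a (-0.28 to 0.18) and Il1r2 (-0.12 to 0.15) at 9 hr. In genotype by time they were Il1a (-0.30 to 0.058), Il1rn (-0.0098 to 0.045), Il1r1 (-0.31 to 0.030) and Il18bp (-0.00055 to 0.12) at 1 hr, Il1r1 (-0.083 to 0.21) and Il1rap (-0.045 to 0.028) at 3 hr, Il1r1 (-0.25 to 0.023) and Il1rap (-0.055 to 0.057) at 6 hr, and Il1a (-0.28 to 0.14) and Il1r2 (-0.23 to 0.25) at 9 hr. In the time steps they were Il1b (-0.10 to 0.015) and Il1r2 (-0.46 to 0.029) from 1 to 3 hr in WT and Il1r2 from 6 to 9 hr in the libraries labelled Cpeb4-/- (-0.40 to 0.0080). Of the untested genotype differences in inhibitor minus partner values, leaving out 1 mouse turned Il1rn minus Il1b (-0.10 to 0.12) and Il1rn minus Il1a (-0.36 to 0.0090) at 9 hr and Il1r2 minus Il1r1 at 0 hr (-0.12 to 0.036), 3 hr (-0.0026 to 0.31) and 6 hr (-0.28 to 0.14). The cause of these changes was not tested. Without counts, the precision at the low levels of Il1r1 and Il1r2 cannot be separated from the shrinkage of the rlog transformation.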
